A study of Mus musculus with 8 samples.

Results

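The genes described here are named for proteins of the cytoplasmic ribosome and of the mitochondrial ribosome. They were chosen by name and level: symbols of the Rpl, Rps, Mrpl and Mrps series with a mean normalised count of at least 50 over the 8 libraries. This gave 153 genes of the 34899 in the deposited table, 76 of them cytoplasmic (45 of the large subunit and 31 of the small one by their symbols) and 77 mitochondrial (48 and 29). The data are RNA-seq of endothelial cells purified by flow cytometry from the lungs of female C57BL6 mice, as cells without CD45, the surface marker of leukocytes, and with CD31, the endothelial adhesion molecule encoded by Pecam1. There were 4 HF and 4 LF libraries, of 4 mice each per the design text. The labels give strain and sex alike for both groups and name no age, treatment or duration. HF and LF are not spelled out, and the series title places the mice in a study of obesity and of neutrophil oxidants acting on blood vessels.

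A ribosome translates mRNA into protein with a small subunit that reads the message and a large subunit that joins the amino acids. The cytoplasmic ribosome makes nearly all proteins of the cell, and the mRNAs of its proteins typically begin with a C followed by pyrimidines, the TOP element through which mTORC1 adjusts their translation. The mitochondrial ribosome is built from nuclear-encoded proteins on RNAs of the mitochondrial genome, and it makes only the few respiratory-chain subunits which that genome encodes. Endothelial cells draw much of their energy from glycolysis and hold few mitochondria compared with muscle.

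Libraries held 10631506 to 20781564 reads assigned to genes, and each of the 153 genes had at least 80 reads in every library. All 153 passed the filter on low values, so none is missing from the counts below. Values are the authors' normalised counts, which are not scaled for gene length. Folds and log2 differences are HF against LF on the log2(value + 1) scale, so a positive difference means a higher mean in HF. The test was limma's moderated test across 17067 genes, with Benjamini-Hochberg adjustment over all of them and a threshold of 0.05. It called 0 genes (0%) in either direction, while 1882 genes had an unadjusted p under 0.05 and edgeR's quasi-likelihood test called 0. Endothelial markers were abundant in every library: Pecam1 was at 27351 to 29564 in HF and 19424 to 33236 in LF, and Cdh5, the endothelial cadherin, was at 12758 to 13204 and 9595 to 13028. LF 1 and LF 2 stood apart from the other libraries on the leading principal component, at -56.4 and -50.9 against -6.79 to 39.6, so each class result is given with and without them.

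The mitochondrial and the cytoplasmic genes leaned in opposite directions over all 8 libraries, and no member of either class passed limma. Of the 76 cytoplasmic genes, 68 had the lower mean in HF, against 46.8% of all genes tested, with a median log2 difference of -0.09. Of the 77 mitochondrial genes, 68 were higher on average in HF, against 53.2% of all genes tested, and their median was 0.10. The median over all genes tested was 0.02. Among all genes with a mean of at least 50, the level asked of the members, 63.2% were higher in HF, with a median of 0.075. The directions depended on which LF libraries were kept. Without LF 1 and LF 2 the mitochondrial median turned to -0.09, with 21 of 77 genes higher in HF against 45.4% of all genes, and without LF 3 the cytoplasmic median was -0.0018, with 40 of 76 lower against 46.7%. Over all 8 libraries the differences were small, a median fold of 0.939 for the cytoplasmic class and of 1.07 for the mitochondrial class. The largest difference of any member was that of Mrps30, a mitochondrial ribosomal protein, whose HF libraries all lay above its LF libraries.

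**Figure D1:**
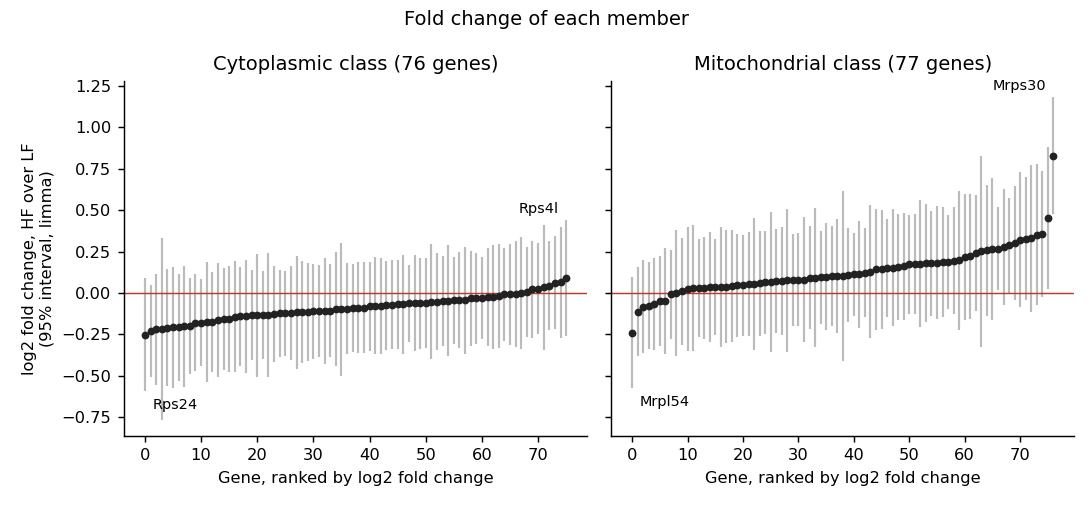
Log2 fold change of HF over LF for each of the 153 genes (vertical axis), ordered by size within the cytoplasmic and mitochondrial class (horizontal axis), with 95% intervals from the limma fit. Cytoplasmic genes ran from -0.25 to 0.09 with every interval including no change, and mitochondrial genes from -0.24 to 0.83, where Mrps30 lies apart from the rest.

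The start regions of 6 genes are shown as examples from both classes: the mitochondrial genes Mrps30, Mrps22 and Mrpl3, which were among the 5 with the smallest p, and the cytoplasmic genes Rpl37, Rplp2 and Rps6, which hold the ETS core and were not called in any fit. Sequences are from RefSeq (GRCm38.p6), 120 bases before to 10 bases after the transcription start, 5′ to 3′ on the gene's strand, with the ETS core CCGGAAG and the box CCAAT in capitals on whichever strand they lie.
Mrps30, chr13:118387243-118387372, minus strand: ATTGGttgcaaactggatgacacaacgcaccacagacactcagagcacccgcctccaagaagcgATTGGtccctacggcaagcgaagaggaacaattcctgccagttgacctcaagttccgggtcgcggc
Mrps22, chr9:98601670-98601799, minus strand: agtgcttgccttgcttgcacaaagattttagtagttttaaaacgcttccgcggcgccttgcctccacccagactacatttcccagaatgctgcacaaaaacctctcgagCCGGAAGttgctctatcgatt
Mrpl3, chr9:105053148-105053277, plus strand: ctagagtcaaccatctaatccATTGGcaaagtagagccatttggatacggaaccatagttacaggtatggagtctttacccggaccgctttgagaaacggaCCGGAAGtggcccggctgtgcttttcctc
Rpl37, chr15:5116493-5116622, plus strand: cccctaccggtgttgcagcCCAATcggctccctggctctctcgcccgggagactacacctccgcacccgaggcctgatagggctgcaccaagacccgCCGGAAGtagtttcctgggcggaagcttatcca
Rplp2, chr7:141447531-141447660, plus strand: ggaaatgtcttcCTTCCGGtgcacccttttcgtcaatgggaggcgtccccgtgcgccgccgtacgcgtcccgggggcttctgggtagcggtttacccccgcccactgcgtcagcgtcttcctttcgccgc
Rps6, chr4:86857358-86857487, minus strand: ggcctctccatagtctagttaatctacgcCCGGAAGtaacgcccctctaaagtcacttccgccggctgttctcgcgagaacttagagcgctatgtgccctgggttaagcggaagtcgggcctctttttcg

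The ETS core was common in both classes, though the cytoplasmic examples above were chosen as holding it and do not count towards this. In the longer windows of 250 bases before to 50 bases after the start, matched for 55 of the 76 cytoplasmic and 68 of the 77 mitochondrial genes, CCGGAAG on either strand occurred in 23 cytoplasmic (41.8%) and 25 mitochondrial genes (36.8%). Among all 27025 genes with such a window it occurred in 2683 (9.93%). CCAAT on either strand was found in 32.7% of the cytoplasmic and 38.2% of the mitochondrial genes, against 41.1% of all genes. TATAAA was found in 10.9% and 7.35%, against 15.7%. A YY1 motif was found in 5 of 68 mitochondrial (7.35%) and 0 of 55 cytoplasmic genes, against 0.755% of all genes, and an NRF1 motif in 4.41% and 3.64%, against 1.07%. None of these motifs contains another, and a match is a description, not a bound site.

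The TOP element lies at the start base itself. The run sought was a C, not preceded by C or T, followed by at least 5 pyrimidines and beginning within 10 bases of the annotated start. It was found in 20 of 55 cytoplasmic genes (36.4%), 15 of 68 mitochondrial genes (22.1%) and 15.9% of all genes. Runs of pyrimidines that begin with T were not counted. The examples below run from 30 bases before to 15 bases after the start, with the run in capitals.
Rps6, chr4:86857353-86857397, minus strand: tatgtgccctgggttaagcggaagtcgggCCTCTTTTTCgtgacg
Mrpl3, chr9:105053238-105053282, plus strand: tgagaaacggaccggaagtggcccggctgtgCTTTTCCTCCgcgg

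Cytoplasmic ribosomal protein mRNAs made up a larger part of some LF libraries. In HF the 76 genes held 0.715%, 0.699%, 0.787% and 0.691% of the normalised counts, and in LF 0.957%, 0.757%, 0.919% and 0.673%. LF 1 and LF 3 were the highest, LF 4 was the lowest, and the groups overlapped, with means of 0.723% ± 0.0437 in HF and 0.827% ± 0.134 in LF (SD, n = 4). Pseudogene copies of these genes, 225 in the table, held only 0.0173% to 0.0318% of a library. How the authors handled reads that match a gene and its copies is unknown here, so the number of shared reads was not tested.

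**Figure D2:**
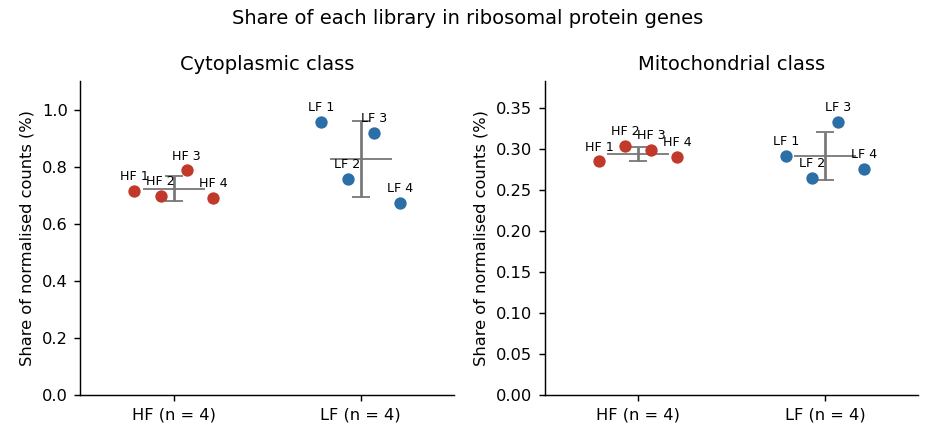
Share of each library's normalised counts (percent, vertical axis) held by the 76 cytoplasmic and the 77 mitochondrial genes in the 4 HF and 4 LF libraries, with each library as a point and the group mean with its SD. Cytoplasmic shares spread from 0.673% to 0.957% in LF and from 0.691% to 0.787% in HF, and the mitochondrial shares of the groups overlapped too.

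In the large cytoplasmic subunit 40 of 45 genes had the lower mean in HF, and in the small one 28 of 31. No cytoplasmic gene had an unadjusted p under 0.05, where 11% of all genes did, and the smallest adjusted p was 0.535. None had groups that did not overlap, where 3.47% of all genes had every HF library above and 1.96% every HF library below LF. All 76 intervals of the fold included no change, and their bounds ran from 0.589 to 1.36.

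The 4 cytoplasmic genes with the smallest p were of the small subunit by symbol, all with the lower mean in HF. Rps24, a protein needed for maturation of the small-subunit rRNA, had 995, 970, 1173 and 984 normalised counts in HF and 1509, 1049, 1461 and 968 in LF. LF 1 and LF 3 lay above all HF libraries and LF 4 below them, and the log2 difference was -0.25 (SE 0.16, limma adjusted p = 0.57). Rps15a had 595, 585, 640 and 539 in HF and 742, 610, 798 and 629 in LF, a log2 difference of -0.23 with an interval of the fold from 0.703 to 1.03. HF 3 lay above LF 2 and LF 4 there. Rps16 had 1216, 1194, 1304 and 1127 in HF and 1642, 1326, 1522 and 1115 in LF, with LF 1 to LF 3 above all HF libraries and LF 4 below. Rpsa, which also serves at the cell surface as a laminin receptor, had 2231 to 2399 in HF and 2385, 2419, 3185 and 2489 in LF, with LF 3 far above the other 7. Its difference was -0.18, and -0.06 without LF 3 and LF 4.

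The P-stalk, the arm of the large subunit that recruits elongation factors, did not share a direction. Its base Rplp0 had 4282, 4768, 4729 and 4931 in HF and 4153, 4042, 5263 and 4761 in LF, a log2 difference of 0.04. Its arms Rplp1 and Rplp2 had lower means in HF. Rplp1 had 1242, 1376, 1553 and 1305 in HF and 1848, 1399, 1674 and 1313 in LF (-0.18), and Rplp2 had 853, 898, 1120 and 926 against 1503, 930, 1145 and 883 (-0.21). LF 1 was the highest library for both arms and among the lowest for the base. None of the 3 differences exceeded the spread between libraries (limma adjusted p = 0.898, 0.633 and 0.655).

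Rpl5 and Rpl11, which with the 5S rRNA form the particle that binds Mdm2 when ribosome assembly fails, had log2 differences of 0.06 and -0.01. Rpl5 had 1761, 1927, 1885 and 1836 in HF and 1447, 1489, 2399 and 1903 in LF, with LF 1 and LF 2 below and LF 3 above every HF library. Rpl11 had 977, 957, 1017 and 1009 in HF and 1065, 794, 1254 and 923 in LF. Rps6, the subunit protein phosphorylated by S6 kinase, was at 2360 ± 138 in HF and 2279 ± 371 in LF. Rps3 of the mRNA entry site was at 2790 ± 45.1 and 2835 ± 474, and Rpl3, close to the peptidyl transferase centre, at 3316 ± 121 and 3467 ± 232. Rpl10, among the last proteins to join the large subunit, was at 2670 ± 86.1 and 2756 ± 430. In each of these 4 genes the SD was larger in LF than in HF.

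The X-linked Rps4x was at 1849, 1955, 2062 and 1951 in HF and 1865, 1858, 2660 and 1872 in LF, so LF 3 alone lay outside the range of the other libraries. Rps27a, whose precursor carries ubiquitin, was at 1230 ± 75.1 in HF and 1347 ± 289 in LF. Rps4l, annotated as a transcribed processed pseudogene though its symbol fits the series, had the highest positive difference, 0.09. The other 7 with the higher mean in HF were Rps6, Rpl5, Rplp0, Rps13, Rpl13a, Rpl18 and Rpl19. Near-identical copies are a limit of such values, since reads could be divided among them.

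Paralogue pairs differed in level. Per kb of exon, Rps27 had 1783 in HF and 1941 in LF, and its paralogue Rps27l, known as a p53 target, had 1599 and 1640. Rpl22 was at 202 and 223 per kb and Rpl22l1 at 154 and 161. Rpl3 was at 1045 and 1092 per kb while Rpl3l, known from striated muscle, was at 3.48 and 2.49. Rpl39 was at 315 and 354 while Rpl39l, known from the germline, was at 0 counts in 7 libraries and at 4.62 in LF 2. Rpl36a was at 397 and 415 per kb while Rpl36al was at 8.86 and 8.1. Rpl3l, Rpl39l and Rpl36al lay far below the common form, while Rps27l and Rpl22l1 came near it.

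Levels per kb of exon spread widely within the class, with a median of 734 and a range from 54.2 for Rpl13a to 3062 for Rpl41, against a median of 67.2 over all genes tested. Rpl36 followed Rpl41, at 2939. Rpl13a, Rpl24, Rps10 and Mrps34 have low values and exons shared with another annotated gene on the same strand. Such sharing was not limited to low genes. Mrps18c, Mrps6 and Mrps24 share 23.2%, 19.9% and 15.4% of their exon bases on the same strand, at means of 503, 437 and 749. Of the exon bases of Rpl13a, 35.4% overlap same-strand annotations, among them a snoRNA and a miRNA gene. Just below the limit of 50 lay Rpl24, at a mean of 31.8, and Rps10, at 33.9, with 47.0% and 20.6% of their exon bases shared, and just above it lay Rpl13a at 115 and Rpl23a at 216. Rpl24 and Rps10 are core proteins of the ribosome, so a low count there was not read as a low mRNA level, and the part of the overlap was not tested. Mrps34, the lowest mitochondrial gene at 121, shares 37.0% of its exon bases with Nme3, and Mrps18b was next at 171.

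Mitochondrial ribosomal proteins were held more evenly. Their 77 genes made up 0.285%, 0.304%, 0.299% and 0.290% of the HF libraries and 0.292%, 0.265%, 0.333% and 0.276% of the LF libraries. LF 2 was the lowest and LF 3 the highest, and the means of 0.294% ± 0.00851 and 0.291% ± 0.0298 were nearly equal (SD, n = 4). A share of the library and a count scaled by the authors' size factors need not move alike, and here the per-gene values leaned to HF while the share did not. In the large subunit 42 of 48 genes were on average higher in HF and in the small one 26 of 29. Without LF 1 and LF 2 these counts were 11 of 48 and 10 of 29, with medians of -0.10 and -0.06, so the direction turned in both subunits. An unadjusted p under 0.05 was found for 3 of the 77, Mrps30, Mrps24 and Mrps22, all higher in HF, where 6.36% of all genes were. Every HF library lay above LF in 2 of them, Mrps30 and Mrps24, against 3.47% of all genes.

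Mrps30 carries a small-subunit symbol, but structures of the mammalian mitochondrial ribosome place the protein in the large subunit. It had 417, 463, 428 and 508 normalised counts in HF and 277, 327, 217 and 214 in LF. The highest LF library, LF 2, lay below the lowest HF library, HF 1. The log2 difference was 0.83 (SE 0.16), and the interval of the fold ran from 1.39 to 2.27. Its limma adjusted p was 0.143. DESeq2 on the recovered reads called it (log2 0.79, adjusted p = 0.00363), among 1.83% of all genes called (1.33% higher in HF), and so did the authors' deposited table (log2 0.81, adjusted p = 0.00214), among 2.04% of its genes with an adjusted p (1.58% higher in HF). It was the only member that either called, and edgeR's quasi-likelihood test did not call it. Mrps30 lies on chromosome 13, 118378381 to 118387252, minus strand (GRCm38), and B430218F22Rik, which overlaps its exons on the other strand, had at most 0.788 counts in any library.

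**Figure D3:**
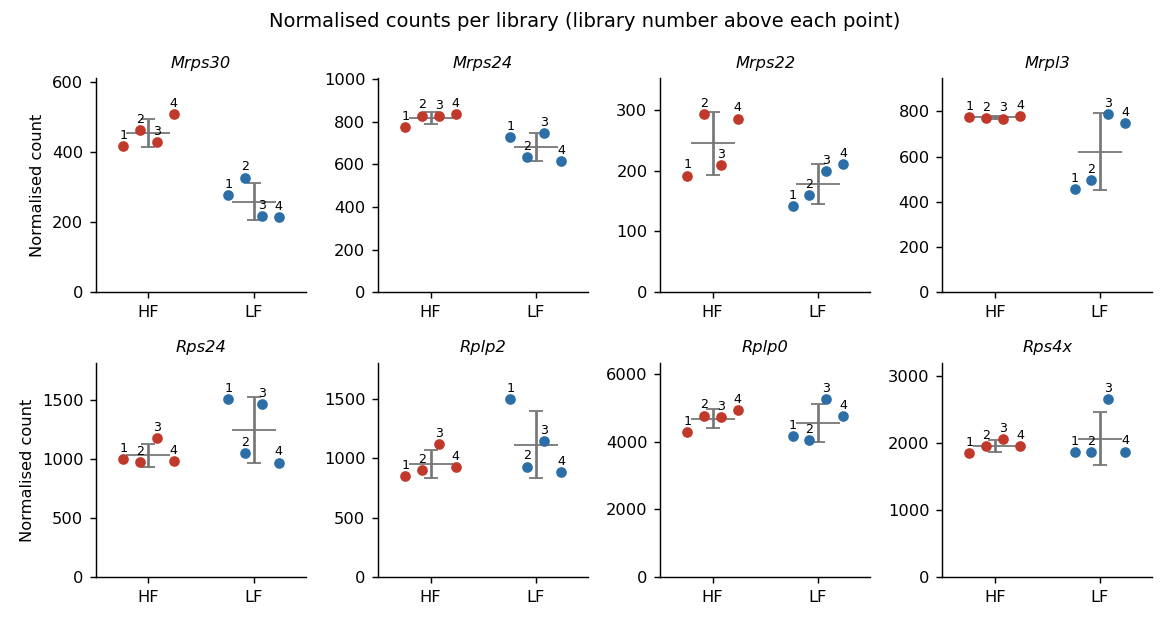
Normalised counts (vertical axis) in each of the 4 HF and 4 LF libraries, with each library as a point and bars at the group mean with its SD. The genes are Mrps30, Mrps24, Mrps22, Mrpl3, Rps24, Rplp2, Rplp0 and Rps4x. Mrps30 lay between 417 and 508 in HF and between 214 and 327 in LF, and Mrps24 is the other member whose groups did not overlap.

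Mrps24 had 774, 829, 826 and 837 in HF and 727, 633, 748 and 615 in LF, so the groups were apart by the gap between 748 and 774. Its log2 difference was 0.27 (SE 0.12), and its limma adjusted p was 0.419. Mrps22 had 192, 293, 210 and 286 in HF and 142, 160, 200 and 211 in LF, a log2 difference of 0.45 (adjusted p = 0.421), and there LF 3 and LF 4 overlapped HF 1 and HF 3. Mrps17 had 1022, 1202, 1150 and 1004 in HF and 787, 784, 1003 and 1035 in LF. Mrpl3 had 774, 771, 768 and 780 in HF, a span of few counts, and 455, 495, 788 and 747 in LF, so LF 1 and LF 2 alone lay far below HF. Its log2 difference of 0.36 was the highest among genes with an Mrpl symbol (limma adjusted p = 0.477).

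Other members of known role overlapped between the groups. Mrpl12, which also binds the mitochondrial RNA polymerase, had 269, 342, 284 and 322 in HF and 215, 186, 347 and 291 in LF (0.27). Mrps12, of the decoding centre, had 522, 631, 595 and 575 in HF and 487, 406, 612 and 565 in LF (0.18). Mrpl11, at the base of the stalk, was at 418 ± 28 and 420 ± 107. The paralogues Mrps18a, Mrps18b and Mrps18c had differences of 0.07, 0.10 and 0.03. The lowest was Mrpl54, with 328, 307, 296 and 300 in HF and 325, 307, 471 and 371 in LF, where LF 3 and LF 4 lay above every HF library (-0.24, limma adjusted p = 0.582). Mrpl14, Mrpl33, Mrpl42, Mrpl51, Mrpl57, Mrps5, Mrps9 and Mrps11 were the other 8 with the lower mean in HF.

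The spread lay mainly among the LF libraries. The SD of log2 values was larger in LF than in HF in 76 of 76 cytoplasmic and 71 of 77 mitochondrial genes, against 71.5% of all genes tested. The median SD was 0.09 in HF and 0.25 in LF for cytoplasmic genes and 0.12 and 0.28 for mitochondrial genes. LF 3 was the highest of the 8 libraries in 54 cytoplasmic and 44 mitochondrial genes, and LF 1 in 21 cytoplasmic genes and 1 mitochondrial gene. LF 2 was the lowest in 41 and 39. LF 3 lay above all HF libraries in 72 of 76 cytoplasmic and 47 of 77 mitochondrial genes, where it did so in 4267 of all 17067 genes.

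LF 1 lay on different sides in the classes. It was above all HF libraries in 45 of 76 cytoplasmic genes but below all of them in 58 of 77 mitochondrial genes, against 29.7% and 37.7% of all genes. LF 1 and LF 2 lay together below all HF libraries in 55 of 77 mitochondrial genes (71.4%) and in 14 of 76 cytoplasmic genes, against 26.9% of all genes. Mrps30 went the other way, since its lowest values were in LF 3 and LF 4. In LF 1 the median deviation from the gene's mean over libraries was 0.21 among the shorter cytoplasmic genes and 0.05 among the longer ones. HF 3 leaned the same way, at 0.08 and 0.04, and across the 76 genes Spearman's rho with exon length was -0.23 in LF 1, -0.27 in HF 3 and 0.23 in HF 1. In the mitochondrial class it was 0.29 in LF 2 and -0.27 in LF 3. Genes are not independent replicates, and these values are a description. Between the groups, the shorter and longer cytoplasmic genes differed little, with medians of -0.11 and -0.08 and 34 of 38 lower in HF in each.

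**Figure D4:**
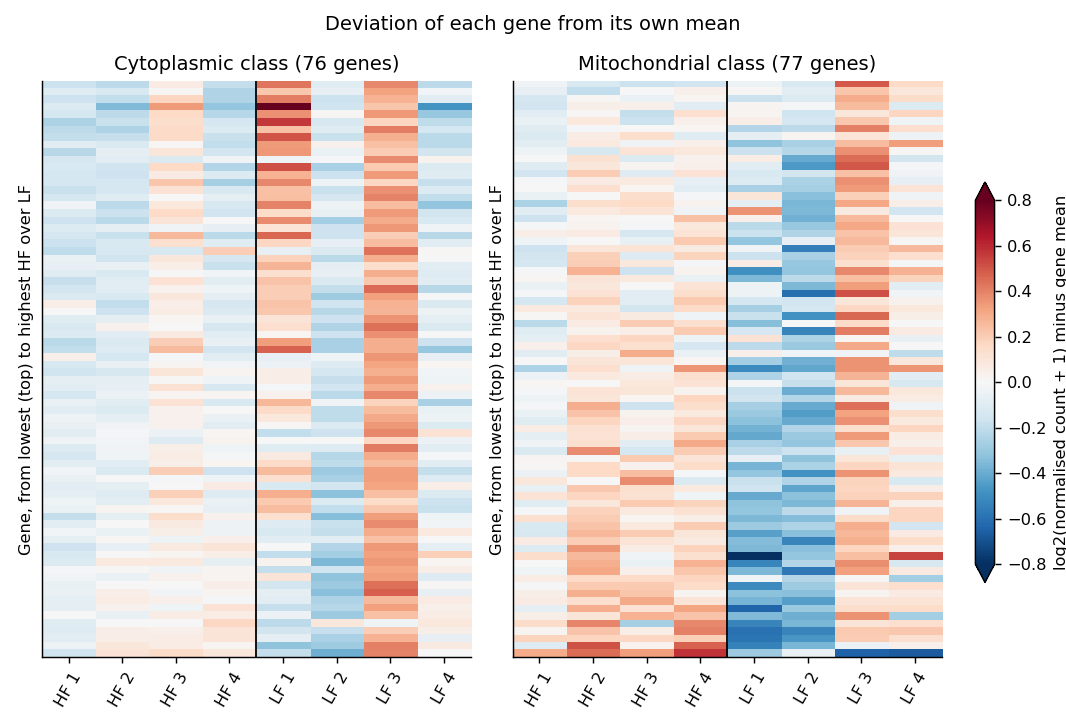
Deviation of each gene's log2 value from its mean over the 8 libraries (colour), with the 153 genes as rows by class and the 4 HF and 4 LF libraries as columns. The LF 3 column is high in both classes, LF 2 is low in both, and LF 1 is high in many cytoplasmic and low in most mitochondrial genes.

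Leaving out libraries moved both classes. Without LF 1 and LF 2, where the mitochondrial median was negative, the cytoplasmic median was -0.17 with 2 of 76 higher. That fit called 3.76% of all genes (3.09% higher in HF) and, of the members, Mrps30 alone (log2 1.07, limma adjusted p = 0.00388). Without LF 3 and LF 4 the mitochondrial median was 0.32, with 74 of 77 higher against 52.5% of all genes. There 25 of 77 genes were called, all higher in HF, where 20% of all genes were called and 14% were called higher. Mrps30 was among them (0.59, adjusted p = 0.0186), as were Mrpl3 (0.70, adjusted p = 0.00432) and Mrps22 (0.68, adjusted p = 0.0425). In that fit the cytoplasmic median was -0.01, with 33 of 76 higher, and 1 gene, Rpl5, was called higher (0.33, adjusted p = 0.0321). Quantile normalisation left 45 of 77 mitochondrial genes higher, against 50.9% of all genes, and 75 of 76 cytoplasmic genes lower, against 49.1%. After regression on exon length and GC content 71 of 77 mitochondrial and 25 of 76 cytoplasmic genes had the higher mean in HF, against 58.6% of all genes, with medians of 0.17 and -0.03.

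**Figure D5:**
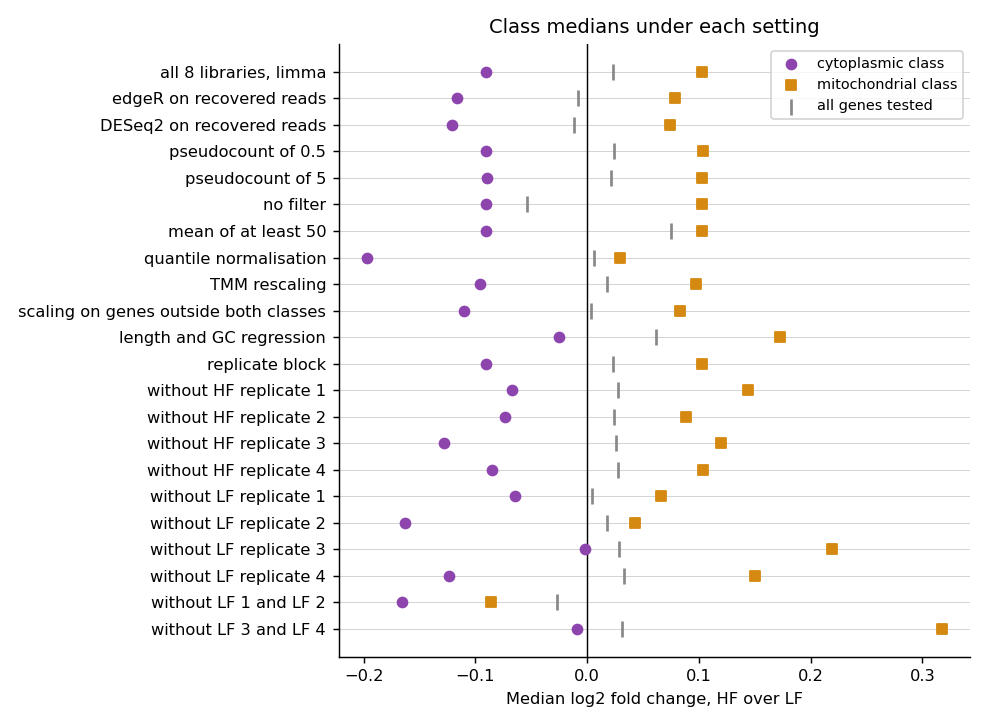
Median log2 fold change of HF over LF (horizontal axis) of the cytoplasmic and the mitochondrial class under each way of processing (vertical axis). The mitochondrial median runs from -0.09 without LF 1 and LF 2 to 0.32 without LF 3 and LF 4, and the cytoplasmic median stays at or below 0 throughout.

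The machinery around the ribosomes was read from lists of genes written for it. Mitochondrial translation factors were higher on average in HF in 23 of 24 genes (median 0.21), with no call by limma over all 8 libraries. Without LF 1 and LF 2, 15 of 24 were higher, against 45.4% of all genes, and 3 were called higher, against 3.09%. Without LF 3 and LF 4, 22 were higher, against 52.5%, and 8 were called higher, against 14%. C1qbp, a matrix protein needed for mitochondrial translation, had 684 ± 35.9 in HF and 533 ± 99 in LF, and Tufm, the mitochondrial elongation factor, had 916 ± 116 and 706 ± 157. Mitochondrial ribosomal proteins with other symbols had 4 of 6 higher (median 0.12, and 2 of 6 with -0.04 without LF 1 and LF 2), Dap3 and Ptcd3 among them at 0.16 and 0.18. The largest difference in this list was negative, at -0.40, and 1 of the 6 was called lower without LF 3 and LF 4. All 15 genes of the mitochondrial genome had the lower mean in HF, with a median of -0.34, and 9 of 15 had every HF library below LF, where 1.96% of all genes did. Both rRNAs on which the mitochondrial proteins assemble were among the 15: mt-Rnr1 was at 3415, 3759, 3660 and 3430 in HF and 5060, 4300, 5362 and 3759 in LF, and HF 2 and LF 4 met there. With all 8 libraries the median of the mitochondrial ribosomal protein genes lay above 0 and that of the mitochondrial genome below it, while without LF 1 and LF 2 both were negative (-0.09 and -0.29). Limma called 0 of the 15 with all 8 libraries. Without LF 3 and LF 4 it called 9 as lower, where 1028 of all 17067 genes were called lower. DESeq2 called 3 of the 15, against 1.83% of all genes in either direction. The authors' deposited table called 1, against 2.04% of its genes in either direction. Regression on exon length and GC content left the median of the 15 at -0.15.

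On the cytoplasmic side, 24 of 28 initiation factors had the higher mean in HF (median 0.11). So had 6 of 12 elongation factors and other TOP mRNAs (median -0.01). The higher mean was in HF for 53.2% of all genes and for 63.2% of those with a mean of at least 50. Among 34 nucleolar assembly factors 27 were higher (median 0.11). Noc2l, a nucleolar factor of large-subunit assembly, had 643 ± 86.3 in HF and 444 ± 144 in LF. Rrs1, which loads the 5S particle, had 286, 344, 427 and 421 in HF against 349, 293, 181 and 155 in LF. Both overlapped between the groups, with LF 3 and LF 4 below every HF library. Of 15 genes of the mTORC1 pathway 9 were higher (median 0.04). Rheb, its activating GTPase, had 2594 to 3006 in HF and 2029 to 2590 in LF and was apart, while Deptor, an inhibitor, was at 450 ± 56.2 and 576 ± 49.4. Cytoplasmic ribosomal proteins with other symbols had 2 of 7 higher (median -0.05), and Fau and Rps3a1 were at -0.13 and -0.09. With all 8 libraries limma called no gene of these lists. Without LF 1 and LF 2 only 4 of 28 initiation factors were higher (median -0.11), 10 of 34 assembly factors (median -0.07), 1 of 12 elongation factors and other TOP mRNAs (median -0.20) and 5 of 15 mTORC1 genes (median -0.07), so the median turned negative in 3 of these 4 lists. In that fit 45.4% of all genes were higher, with a median of -0.03, and 3.09% were called higher. Of these lists it called 2 assembly factors, Rrs1 (1.12, limma adjusted p = 0.00835) and Noc2l (0.98, limma adjusted p = 0.0107). Without LF 3 and LF 4, 14% of all genes were called higher and 1028 of 17067 lower. There 12 of 28 initiation factors, 9 of 34 assembly factors and 2 of 12 elongation or other TOP mRNAs were called higher. Of 15 mTORC1 genes 2 were called higher and 2 lower. The counts of TOP mRNAs and mTORC1 genes called higher lay near the share of all genes.

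Of 8 endothelial markers 7 had the higher mean in HF (median 0.19). The share was 53.2% over all genes and 63.2% over those with a mean of at least 50. The other marker, at -0.42, had every HF library below LF, as 1.96% of all genes did. Without LF 1 and LF 2, 1 of 8 was higher (median -0.085), against 45.4% of all genes. Without LF 3 and LF 4, 7 of 8 were higher (median 0.40), and 6 were called higher and 1 lower. In that fit 14% of all genes were called higher and 1028 of 17067 lower. The endothelial list held 0.755% of LF 1, 0.766% of LF 2 and 0.848% to 0.948% of the other libraries. Markers of other cell types had mostly lower means in HF, where 46.8% of all genes had. All 7 leukocyte markers tested had the lower mean in HF (median -0.54), and their list held 0.0219% to 0.0374% of HF and 0.0361% to 0.0459% of LF libraries, with Cd3e at 0 in HF 3 and LF 3. Fibroblast markers were lower in 6 of 6 (0.00734% to 0.0193% against 0.0124% to 0.0284%), lung epithelial markers in 7 of 8 (0.0938% to 0.152% against 0.13% to 0.227%) and smooth muscle and pericyte markers in 5 of 6 (0.0105% to 0.014% against 0.013% to 0.0251%). Without LF 1 and LF 2 the epithelial median moved from -0.39 to -0.05, with 3 of 8 higher. There the medians were -0.43 for leukocytes, -0.49 for fibroblasts and -0.38 for smooth muscle and pericytes. That fit called 2 epithelial markers lower, where 113 of 17067 genes were called lower. DESeq2 and the authors' table each called 1 epithelial and 1 smooth muscle or pericyte marker, against 1.83% and 2.04% of all genes. Erythrocyte and platelet markers had a median of -0.26, and of -0.43 without LF 1 and LF 2, where 3 of 6 were called lower. They held 0.116% to 0.13% of HF and 0.144% to 0.224% of LF libraries, highest in LF 3. There Hbb-bs, the haemoglobin gene, was at 16696 against 8171 to 12998 elsewhere. LF 3 was also the library in which most ribosomal protein genes were highest. Their part in the ribosomal protein values was not tested, and in sorted bulk samples fewer cells of a type and less RNA per cell cannot be told apart.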

How the data were processed

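Gene expression was measured by RNA-seq in 8 libraries, 4 HF and 4 LF, and a SMART-Seq kit was used on RNA extracted with TRIzol LS, per the labels' protocols. DESeq2 1.24.0, STAR 2.6.1b and featureCounts 2.0.0 are listed, with no order, in the submitters' processing notes. Not given in the sources used here are the genome build, the annotation, the strand setting and the treatment of reads with several matches. The values the authors deposited are normalised counts by gene and library, a signal that takes no account of gene length. The same table gives, per the file headers, the authors' log2 fold change with SE, Wald score, p-value and adjusted p.

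Multiplying the deposited values by each library's size factor (0.820 to 1.27) recovered whole reads (tolerance 0.01 reads, 100% of values whole). Totals of 10631506 to 20781564 reads limit the precision of low genes, and without molecular identifiers some reads are copies of 1 molecule. GENCODE M21 (GRCm38) held all 34899 gene IDs and supplied positions, exon lengths and overlaps, and no column of per-sample values was left unmatched. The 17067 genes that reached 10 normalised counts in 4 or more libraries were tested with limma 3.58.1 in R 4.3.3 (two-sided, with a mean-variance trend, on log2 of value + 1, no covariate). Alternatives were edgeR 4.0.16, DESeq2 1.42.0, pseudocounts of 0.5 and 5, no filter or a mean of at least 50, other scalings, regression on length and GC content, a block on replicate number, fits without 1 or more libraries, and a threshold of 0.10. The tests were tried on simulated counts.

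The members, lists and alternatives were chosen with earlier results of these data known, so a class is described by counts and its median, with no test of the class. Genes named were, in each class, the 5 per direction with the smallest p, those called in the authors' table, the 2 highest and lowest per kb, the 2 on each side of the mean of 50, a set of well-known members and paralogues, and up to 4 genes per list. Other genes are named after their values were seen. Promoter windows came from RefSeq (GRCm38.p6). Within each group, every pair of libraries differed by more than sampling noise (chi-square per degree of freedom 10.1 to 51.3), so all 8 were counted. P-values measure the spread between these samples, which the design text assigns to 4 mice per group.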

Additional observations from a re-analysis of the deposited data

Results flagged for a closer look

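In 5 of the 100 groups of 4 libraries examined for the 48 named members and the 2 class shares, 1 library stood far from the other 3 by Dixon's criterion, which chance alone gives in about 1 in 20 groups. Rps24 reached 1173 normalised counts in HF 3 against 970 to 995 in the other HF libraries. Rpl37 reached 1195 and Rpl36a 761 in the same library, against 896 to 946 and 619 to 630. In LF 3 Rpsa was at 3185 against 2385 to 2489 in the other LF libraries, and Rps4x was at 2660 against 1858 to 1872. No mitochondrial gene was among them.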

How the results depend on the processing

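Neither class had a member called by limma under the pseudocounts of 0.5 and 5, both filters, quantile normalisation, TMM rescaling, scaling on genes outside both classes, the regression on length and GC content, the replicate block, any single library left out, or a threshold of 0.10, and edgeR called none. The number of all genes called was 313 with DESeq2, 1 with no filter, 641 without LF 1 and LF 2, 3421 without LF 3 and LF 4, and 0 to 1 with 1 library left out. Mitochondrial genes called numbered 1 with DESeq2, 1 without LF 1 and LF 2, and 25 without the other LF libraries, where 1 cytoplasmic gene was called. The mitochondrial median turned to -0.086 without LF 1 and LF 2, and it was 0.32 without LF 3 and LF 4. Of its 77 genes, 45 were higher on average in HF with quantile normalisation, 21 without LF 1 and LF 2, and 45 to 73 with 1 library left out (45 without LF 2). Of the 76 cytoplasmic genes, 43 had the lower mean without LF 3 and LF 4, and 40 to 75 with 1 library left out (40 without LF 3). Single genes that changed sign follow with their log2 differences. With regression on length and GC content, the values were 0.0068 for Rpl23a, 0.020 for Rps4x, 0.033 for Rpl36a, 0.035 for Rpl10, 0.15 for Rps27l and 0.017 for Rpl11. Without LF 3 and LF 4, the values were 0.025 for Rpl23a, 0.097 for Mrpl51, 0.069 for Rps4x, 0.037 for Mrps5, 0.14 for Rpl10, 0.16 for Rps27l, 0.11 for Rpl11 and 0.17 for Rps3. With edgeR, the values were -0.023 for Mrpl11 and -0.00032 for Mrps18c. With DESeq2, the values were -0.028 for Mrpl11, -0.0052 for Mrps18c and -0.0039 for Rps13. With quantile normalisation, the values were -0.063 for Mrpl11, -0.051 for Mrps18c, -0.075 for Rps13, -0.073 for Mrps21, -0.043 for Rpl5, -0.087 for Rplp0, -0.036 for Mrps35, -0.029 for Mrps18a, -0.055 for Rps6 and -0.011 for Rps4l. Without LF 1 and LF 2, the values were -0.14 for Mrpl11, -0.21 for Mrps18c, -0.13 for Rps13, -0.065 for Mrps21, -0.0060 for Rpl13a, -0.21 for Rpl5, -0.10 for Rplp0, -0.11 for Mrps35, -0.18 for Mrps18a, -0.076 for Rps6, -0.31 for Mrps18b, -0.15 for Rps4l, -0.039 for Mrpl27, -0.022 for Mrps12 and -0.068 for Mrpl12. With 1 library left out, the ranges were -0.11 to 0.18 for Mrpl11, -0.15 to 0.0016 for Mrpl51, -0.036 to 0.16 for Mrps18a, -0.049 to 0.24 for Mrps18b, -0.047 to 0.15 for Mrps18c, -0.070 to 0.11 for Mrps21, -0.038 to 0.15 for Mrps35, -0.10 to 0.061 for Rpl10, -0.12 to 0.10 for Rpl11, -0.029 to 0.072 for Rpl13a, -0.21 to 0.013 for Rpl22, -0.16 to 0.043 for Rpl36a, -0.033 to 0.21 for Rpl5, -0.010 to 0.12 for Rplp0, -0.066 to 0.11 for Rps13, -0.21 to 0.019 for Rps27a, -0.14 to 0.096 for Rps27l, -0.074 to 0.094 for Rps3, -0.025 to 0.24 for Rps4l, -0.11 to 0.066 for Rps4x and -0.014 to 0.17 for Rps6. With the replicate number as a block, the medians were -0.09 and 0.10, 0 genes were called and Mrps30 had a limma adjusted p of 0.332. Same-numbered libraries did not deviate together (correlations of 0.115, -0.222, -0.143 and 0.185), so the numbers were not taken as pairs. The limma adjusted p of Mrps30 was 0.0859 to 0.525 with 1 library left out. The cause of these changes was not tested.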

Other observations

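Among the genes around the ribosome not described above, Mterf4, which brings an rRNA methyltransferase to the mitochondrial large subunit, was at 235, 252, 231 and 272 normalised counts in HF and 196, 146, 216 and 190 in LF, so its groups did not overlap (log2 0.41, limma adjusted p = 0.378). Ddx28, a helicase of mitochondrial ribosome assembly, was at 192 ± 13.9 and 149 ± 32.2. Polr1a, the largest subunit of RNA polymerase I, had the lower values in HF, 217, 215, 232 and 250 against 289, 268, 261 and 267, again without overlap (-0.25, limma adjusted p = 0.522). Eif3b and Eif3f of the initiation factor that binds the small subunit were at 2411 ± 180 and 1048 ± 64.4 in HF and 1977 ± 275 and 870 ± 98.4 in LF, and both overlapped between the groups. Eif6, which keeps the large subunit apart from the small one, had 1209 and 1185 in LF 1 and LF 2 and 1647 to 1922 in the other 6 libraries. Gadd45gip1, a mitochondrial ribosomal protein with another name, was at 149, 149, 153 and 157 in HF and 289, 202, 206 and 133 in LF, lower in HF than in 3 of the 4 LF libraries.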
